A study of Mus musculus with 3 samples.

Results

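Prl2c2 and Prl2c3 encode proliferins, secreted glycoproteins of the prolactin family, and were found by symbol as 2 of the 32287 features counted in mouse PC cells. The genes were chosen by their UMI counts in the kept cells of this same matrix, so their levels, their spread over cells and their joint detection are given as descriptions. Proliferin is known as a product of serum-stimulated fibroblasts and of the trophoblast giant cells of the placenta. The protein is known to promote migration of endothelial cells and to bind the receptor for mannose 6-phosphate and insulin-like growth factor II, the product of Igf2r. Transcription of proliferin genes is known to respond to serum and to transcription factors of the AP-1 family.

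The PC culture began as organoids of the esophagus, grown from Trp53 floxed/floxed mice. Adenovirus Ad-Cre-EGFP delivered Cre, which removed Trp53, the gene for the tumour suppressor p53, and CRISPR/Cas9 then knocked out Cdkn2a, the gene for the cell cycle inhibitors p16 and p19Arf. By the labels both losses precede everything described here, and no unedited control is named. The cells also expressed Cas9 constitutively, received a barcode library by transfection, grew in serum-containing DMEM first with and later without the kinase inhibitor Y-27632, and were sorted as live RFP-positive cells after 3 passages. The tissue is labelled Esophageal Cancer, and neither the age of the mice nor the number of mice or clones behind the culture is given in the sources used here. A PCN culture, made with a Notch1 knockout, was not analysed here.

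The droplet matrix held UMI counts, numbers of distinct captured RNA molecules per gene and cell barcode. Barcodes with no fewer than 500 genes and 1000 UMIs and with up to 20% of UMIs from mitochondrial genes were kept, 14925 of 18116, with 45443280 UMIs and a median of 2955 UMIs per cell. All cells form 1 sample without a replicate, so no test was possible and no p-value is given, and every interval below is a 95% interval that covers counting error only. Shares of cells were read after drawing 1500 UMIs at random from each cell (thinning), which left 13281 cells of equal depth. Krt5, a keratin of basal squamous cells, had a UMI in 62.2% of thinned cells of the largest cluster and in 4.99% of a cluster led by the mesenchymal gene Grem1. Doublets are taken as not removed. Of the targeted genes, Trp53 had 46.8 CPM (UMIs per 1000000 UMIs of the same cells, 44.8 to 48.8) and Cdkn2a 639.6 CPM (632 to 647), and with 3′ counts and no unedited control these values do not check the labels.

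The sequences bear on how well the 2 rows can be told apart, so a stretch that holds differences is shown first. In the GENCODE M21 models on GRCm38, Prl2c2 (ENSMUSG00000079092) lies at chr13:12996125-13005383 and Prl2c3 (ENSMUSG00000056457) at chr13:12790816-12800079, both on the minus strand, 196045 bp apart. Another proliferin, Prl2c5 (ENSMUSG00000055360), lies at chr13:13182715-13191923 on the plus strand, 177331 bp from Prl2c2. Each has a model of 5 exons, with transcripts of 842, 857 and 844 bases for Prl2c2, Prl2c3 and Prl2c5. The 60 coding bases below span coding positions 317 to 376 within 1 exon, at chr13:12997407-12997466 in Prl2c2, chr13:12792114-12792173 in Prl2c3 and chr13:13190587-13190646 in Prl2c5. They are written 5′ to 3′ along the transcript, and capitals mark the 5 positions at which the 3 genes are not all alike.
Prl2c2: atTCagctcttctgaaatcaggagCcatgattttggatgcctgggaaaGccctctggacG
Prl2c3: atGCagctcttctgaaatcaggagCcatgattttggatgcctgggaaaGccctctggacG
Prl2c5: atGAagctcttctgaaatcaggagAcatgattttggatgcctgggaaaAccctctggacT
In this stretch Prl2c2 and Prl2c3 differed at 1 base, Prl2c2 and Prl2c5 at 5 and Prl2c3 and Prl2c5 at 4.

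Over the whole coding sequence Prl2c2 and Prl2c3 were 99.6% identical, with 672 of 675 aligned bases the same. Their identities with Prl2c5 were 96.2% for Prl2c2 and 96.0% for Prl2c3. The kit reads the 3′ end of transcripts, so the last 500 bases were searched for stretches as long as a typical read. Of the 411 windows of 90 bases in these 500 bases, 377 (91.7%) of either gene occurred unchanged in a transcript of the other. With Prl2c5, 1 of 411 (0.243%) was shared. At 60 bases, 407 of 441 windows (92.3%) were shared between the 2 genes and 31 of 441 (7.03%) with Prl2c5. In the last 300 bases the 2 genes had no mismatched base in the alignment, and all 211 windows of Prl2c2 occurred in Prl2c3. A read from such a window carries no base that tells Prl2c2 from Prl2c3, and the treatment of reads that match both is not stated in any source used here. The division of UMIs between these 2 rows is uncertain for that reason. The sum of the rows is therefore given too, and Prl2c5 is set beside them as a relative with more distinct sequence.

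Both genes were detected well above the rest of the prolactin family. Prl2c2 had 5216 UMIs, or 115 CPM (112 to 118), and Prl2c3 had 10393 UMIs, or 229 CPM (224 to 233). Prl2c5 followed at 1554 UMIs and 34.2 CPM (32.5 to 35.9). These are counts of 3′ ends, 1 per molecule, of transcripts of nearly equal length. Reads that match both Prl2c2 and Prl2c3 may be missing from these 2 rows and from their sum. Their levels and shares beside Prl2c5 are uncertain for that reason, and this was not tested. The matrix held 29 rows whose symbol starts with Prl. Besides the 3 proliferins there were 26, of which 12 had no UMI, a result that allows up to 0.0660 CPM at a floor of 3 UMIs. The other 14 had 82 UMIs together. Prlr, the prolactin receptor, had 23 of these, the placental family members Prl8a6, Prl8a9 and Prl8a1 had 15, 10 and 7, and prolactin itself (Prl) had 6. Prl2c1, Prl3d1, Prl3d2, Prl6a1 and Prl7a1 had 3 UMIs each, Prl7a2 and Prl7d1 had 2 each, and Prl5a1 and Prlh had 1 each. Prl2c1, the closest by name, lies in another part of the chromosome, at chr13:27849342-27857788.

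Proliferin UMIs were unevenly spread over cells. A Prl2c2 UMI was seen in 2399 cells, 16.1% (15.5% to 16.7%), and a Prl2c3 UMI in 3188 cells, 21.4% (20.7% to 22.03%). After thinning the shares were 10.4% (9.93% to 11.0%) and 16.04% (15.4% to 16.7%). The highest unthinned count in a cell was 24 for Prl2c2 and 35 for Prl2c3. For Prl2c3, 1197 cells had 1 UMI, 641 had 2, 1350 had 3 or more and 167 had 10 or more, while for Prl2c2 the corresponding numbers were 1262, 518, 619 and 32. Taken as a sum, the 2 genes were seen in 3880 cells (26.0%), and the 5% of cells with the most UMIs held 53.5% of all of them. The variance over thinned cells was 2.98 times the mean for Prl2c3 and 2.09 times for Prl2c2, against a median of 1.05 over the 2624 genes with at least 0.1 thinned UMIs per cell. By this ratio Prl2c3 stood at rank 39 and Prl2c2 at rank 76. Prl2c5 was rarer and more concentrated, with a UMI in 469 cells (3.14%), a highest count of 77 and 74.0% of its UMIs in the top 1% of cells.

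**Figure D1:**
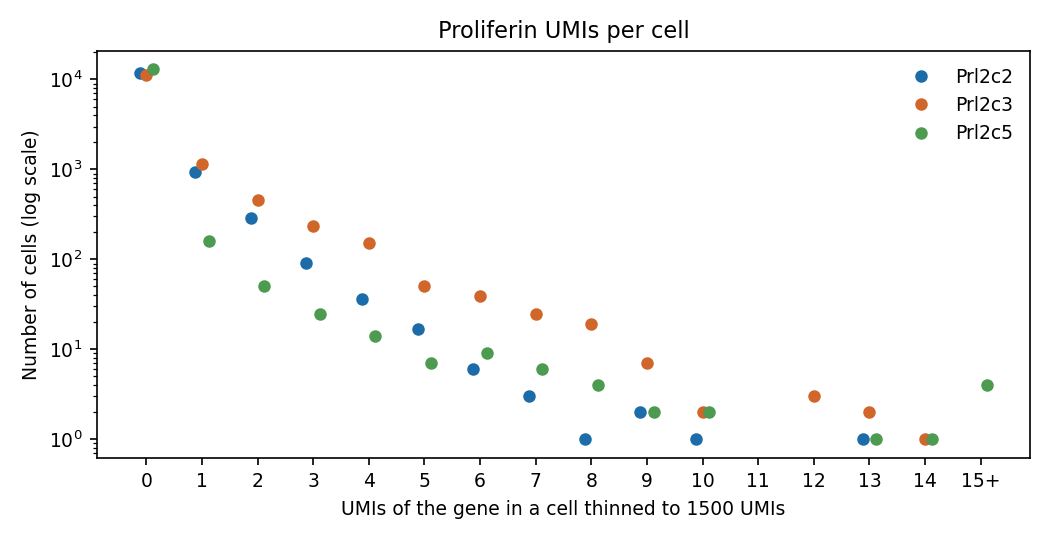
Number of cells (log scale) with each count of Prl2c2, Prl2c3 or Prl2c5 UMIs after thinning to 1500 UMIs per cell; values with no cell are not drawn. All 3 genes have most cells at 0 and a long tail, and the Prl2c3 points lie above the Prl2c2 points from 1 to 8 UMIs.

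The 2 genes were often found in the same cells. Among thinned cells, 835 had both (6.29%, 5.88% to 6.71%), 552 had Prl2c2 alone, 1295 had Prl2c3 alone and 10599 had neither. The share with both was 3.75 times the product of the separate shares, 1.68%. This ratio was 2.16 inside cluster 1 and 11.7 inside cluster 2. A Prl2c3 UMI was present in 60.2% (57.6% to 62.8%) of cells with Prl2c2 and in 10.9% (10.3% to 11.5%) of cells without it. Over cells the Spearman correlation was 0.428, and it ranged from 0.220 in cluster 4 to 0.504 in cluster 8 when taken inside each cluster. The cells share 1 matrix and a fixed depth of 1500 UMIs, and the part of shared sequence in this correlation was not tested.

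Prl2c5, which shares 0.243% of its windows of 90 bases and 7.03% of those of 60 bases with either, was detected jointly with both as well. It was found with Prl2c2 in 107 thinned cells, 3.58 times the product of the shares, and with Prl2c3 in 147 cells, 3.20 times the product. These ratios varied by cluster. They were 2.17 and 1.93 inside cluster 1 and 1.64 and 1.77 inside cluster 8. Inside cluster 2 they were 9.28 and 10.2, from 5 and 8 cells, and in cluster 5 no thinned cell had Prl2c5 with either gene. Of the cells with Prl2c5, 51.4% (45.4% to 57.3%) also had Prl2c3, against 16.04% of all thinned cells. The correlations were lower, 0.133 with Prl2c2 and 0.146 with Prl2c3, over a gene that only 2.15% of thinned cells showed.

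The balance of the 2 rows was similar in most clusters, yet not in every cell. Over all cells Prl2c2 made up 33.4% (32.7% to 34.2%) of the 15609 UMIs of the pair, so Prl2c3 had 1.99 times as many. In 6 clusters the interval overlapped this one, which includes the UMIs of each cluster itself. The share was 33.6% in cluster 2, 33.5% in cluster 3, 36.0% in cluster 5, 35.2% in cluster 6 and 33.8% in cluster 10. It was 32.1% (31.2% to 33.0%) in cluster 1, which supplied 65.2% of these UMIs, so its overlap with the whole carries little. Set against cluster 1 alone, the intervals of clusters 2, 3, 5, 6, 7 and 10 overlapped. Against all cells, the share was lower in cluster 7, at 27.7% (23.3% to 32.4%). It was higher in cluster 4, at 45.8% (39.3% to 52.4%), cluster 8, at 48.7% (44.4% to 53%), and cluster 9, at 66.7% (53.3% to 78.3%) of only 60 UMIs. In the 372 cells with 10 or more UMIs of the pair, the Prl2c2 share ran from 0% to 100%, with a median of 30% and a 10th to 90th percentile range of 10.0% to 58.3%. The variance of the share over these cells was 1.95 times that of binomial draws at 1 common share. Of these cells 8 showed Prl2c3 alone and 1 showed Prl2c2 alone.

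Proliferin level differed by more than an order of magnitude between clusters of cells. The clusters were made without any gene whose symbol starts with Prl and numbered by size. Cluster 3 was named cycling-like, cluster 4 mesenchymal-like and cluster 9 simple epithelial-like from their markers, and the others stayed unnamed. Cluster 1, with 4616 cells, had Sprr1b, Wfdc18 and Ucp2 as its leading genes apart from the proliferins and held 65.2% of the summed UMIs of Prl2c2 and Prl2c3. Its levels were 208 CPM (201 to 215) for Prl2c2 and 439 CPM (429 to 450) for Prl2c3. After thinning, 37.1% (35.7% to 38.5%) of its cells had a UMI of either gene. In the mesenchymal-like cluster 4, led by Grem1 and Ccn5, the levels were 15.9 CPM (13.1 to 19.2) and 18.9 CPM (15.8 to 22.5). There 2.81% (2.11% to 3.64%) of thinned cells had a UMI of either gene, at a median depth of 3343 UMIs per cell before thinning against 3320 in cluster 1. No cell type known to lack proliferin was marked out here, so this lowest share is the nearest gauge of signal from free RNA in the droplets. In the other direction, Vim was found in 74.2% of thinned cells of cluster 4 and in 0.570% of cluster 1.

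The order of the clusters by summed level began with cluster 8, 806 CPM (739.9 to 877), led by Ptn, Fst and Macrod2, and cluster 10, 767 CPM (671 to 873), led by the interferon-responsive genes Ifit3b, Ifit3 and Rsad2. Cluster 1 came next at 647 CPM (634 to 659.7). The intervals of clusters 8 and 10 overlapped each other and not that of cluster 1. The level was 401 CPM (359 to 446) in cluster 6, led by Zfpm2 and Aff2, whose cells had a median of only 1186 UMIs with 10.4% mitochondrial UMIs. The cycling-like cluster 3, led by Ccna2, Nusap1 and Cdc20, had 304 CPM (292 to 316) and cluster 7, led by Sncg and Pglyrp1, 267 CPM (241 to 295), with intervals that overlapped. Lower still were cluster 5, led by the antimicrobial protein genes Ltf and Lcn2 with Gabrp, at 163 CPM (151 to 177), and the simple epithelial-like cluster 9, led by Ly6c1, Krt7 and Pate14, at 141 CPM (108 to 182), also overlapping. Cluster 2, led by Krt7 and Sorbs2, had 76.1 CPM (69.9 to 82.7) in 3303 cells. The mesenchymal-like cluster 4 was lowest at 34.8 CPM (30.5 to 39.6). The highest level was thus 23.2 times the lowest (19.8 to 27.1). This ratio moves with the clustering: it was 18.1 at a coarser resolution of 0.4, 34.6 at a finer one of 1.0 and 53.1 when the cells in the top 10% of doublet scores were left out.

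**Figure D2:**
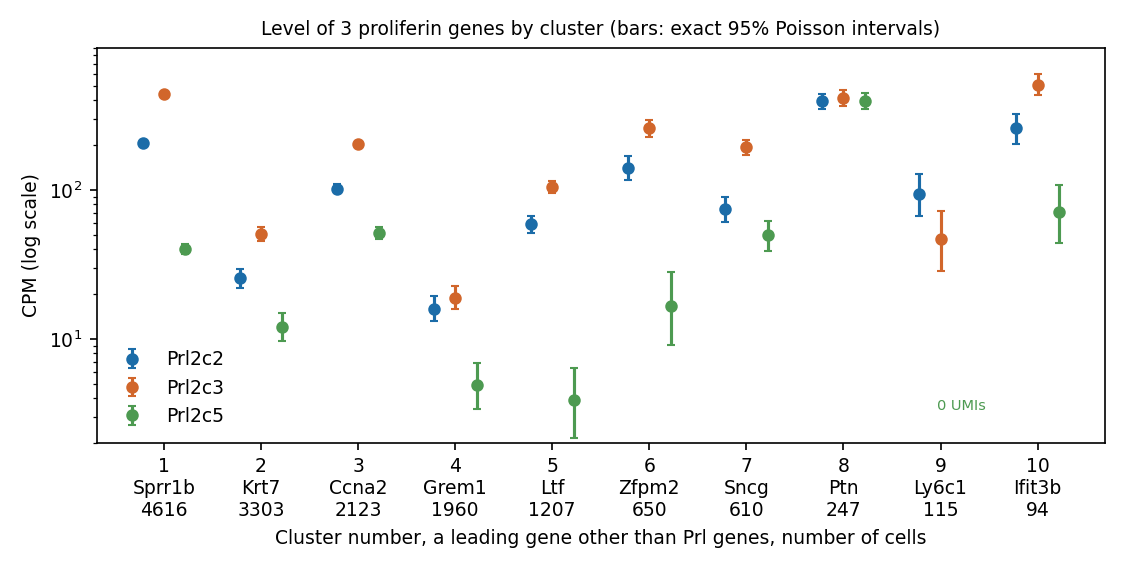
CPM (log scale) of Prl2c2, Prl2c3 and Prl2c5 in the 10 clusters, with the number of cells under each; points are summed UMIs and bars exact 95% Poisson intervals. Prl2c3 lies above Prl2c2 in all clusters but 9, the intervals of these 2 overlap in clusters 4, 8 and 9, and the 3 genes lie between 393 and 413 CPM in cluster 8.

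At the finer resolution the highest level, 1011 CPM (954 to 1071), fell in 287 cells led by the chemokine genes Cxcl2, Ccl5, Cxcl3 and Ccl2 and the epithelial cytokine gene Tslp. Of these cells 87.1% came from cluster 1. The lowest, 29.2 CPM (25.1 to 33.7), was again in the cells led by Grem1.

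Prl2c5 departed from the other genes in cluster 8. There it reached 397 CPM (351 to 448), with an interval that overlapped those of Prl2c2 at 393 CPM (347 to 443) and Prl2c3 at 413 CPM (366 to 465). Outside cluster 8 Prl2c5 stood at 28.7 CPM, so the level in cluster 8 was 13.8 times higher (12.1 to 15.8), against 3.55 times (3.13 to 4.02) for Prl2c2 and 1.83 times (1.62 to 2.06) for Prl2c3. The 3 intervals did not overlap. Of the UMIs of the 3 genes, Prl2c5 made up 33.0% in cluster 8 and 7.87% (7.46% to 8.29%) elsewhere. The signal was spread over 67 of the 247 cells of the cluster, the highest with 20 UMIs, and the ratio was 13.6 without that cell and without the cell with 77 Prl2c5 UMIs, which lay in cluster 3. In the simple epithelial-like cluster 9 Prl2c5 had 0 UMIs, which allows up to 7.05 CPM, beside 94.1 CPM of Prl2c2 and 47.0 CPM of Prl2c3.

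**Figure D3:**
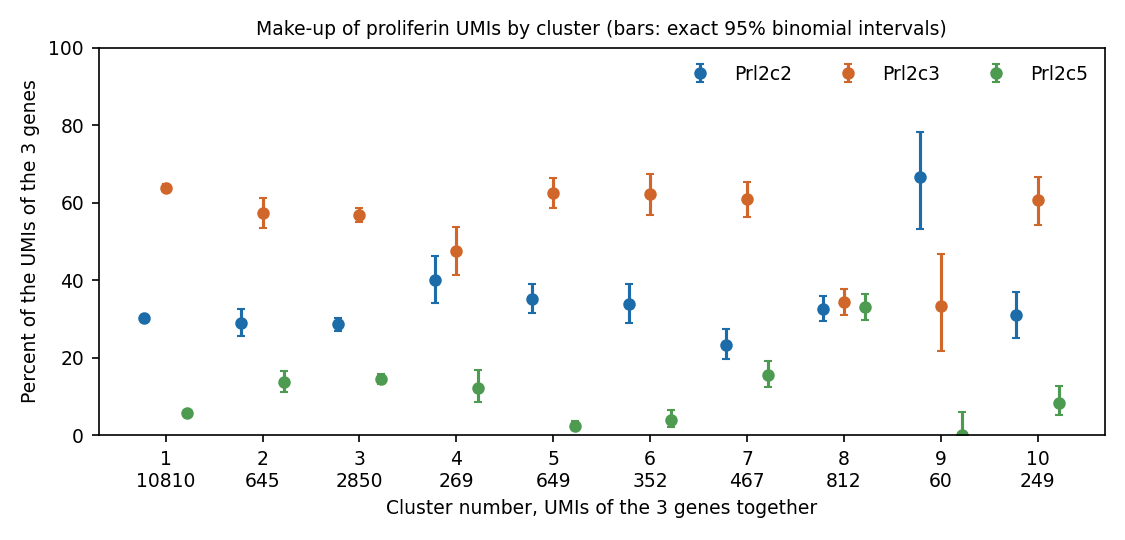
Percent of the UMIs of the 3 genes that each gene contributed, by cluster, with exact 95% binomial intervals and the UMIs behind each cluster. Prl2c3 is the highest point in clusters 1 to 7 and in 10, the 3 genes lie between 32.6% and 34.4% in cluster 8, and Prl2c2 is highest in cluster 9.

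Correlations with proliferin from cell to cell were weak. Spearman correlations with the summed thinned counts of Prl2c2 and Prl2c3 were computed for 2622 genes with at least 0.1 thinned UMIs per cell. Only 1 of them, 0.0381%, reached 0.2: Ppbp, the chemokine gene Cxcl7, at 0.209. None was at -0.2 or below. The number depends on the processing, with 0 genes at a thinning depth of 1000 UMIs, 9 at 2500 UMIs, 7 by Pearson's r on unthinned log values and 0 within clusters. Ly6a, which encodes the surface protein Sca-1, followed at 0.197, then the binding protein gene for insulin-like growth factors Igfbp3 at 0.181, Rps4x, one of the ribosomal protein genes, which have many pseudogene copies, at 0.178, the neutrophil-attracting chemokine gene Cxcl5 at 0.175, Wfdc18 at 0.166, the calcium-binding protein gene S100a6 at 0.164 and the chemokine gene Ccl9 at 0.157. Sema3c, Gpx2, Prdx1, Spink5, Rpl10, Akr1b3 and Rplp0 completed the 15 highest, between 0.144 and 0.133. At the other end stood 5 genes between -0.156 and -0.138, among them the smooth muscle actin gene Acta2, the fibronectin gene Fn1 and the vimentin gene Vim, with Myl6 and Hmga2. In sparse counts such weak values carry little, and they are set against 0.428 between the 2 proliferins themselves.

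Taken as deviations from the cluster mean, the 15 highest and 5 lowest values all moved toward 0. The 5 highest within clusters were Ppbp at 0.130, Cxcl5 at 0.121, Igfbp3 at 0.09999, Ccl9 at 0.0994 and Igfbp7, another binding protein gene of this group, at 0.0966. Igfbp7 was not among the highest over all cells, where it stood at 0.0455. Wfdc18 went from 0.166 to 0.0320 and Vim from -0.143 to 0.00146, so their values over all cells came with differences between clusters. Over clusters the order of Ppbp differed from that of the proliferins, since Ppbp was highest in cluster 5, at 8248 CPM, where Prl2c2 and Prl2c3 together had 163 CPM. For Prl2c5 the highest value was Wfdc18 at 0.128, while Ppbp stood at 0.00451 and Cxcl5 at -0.00186.

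**Figure D4:**
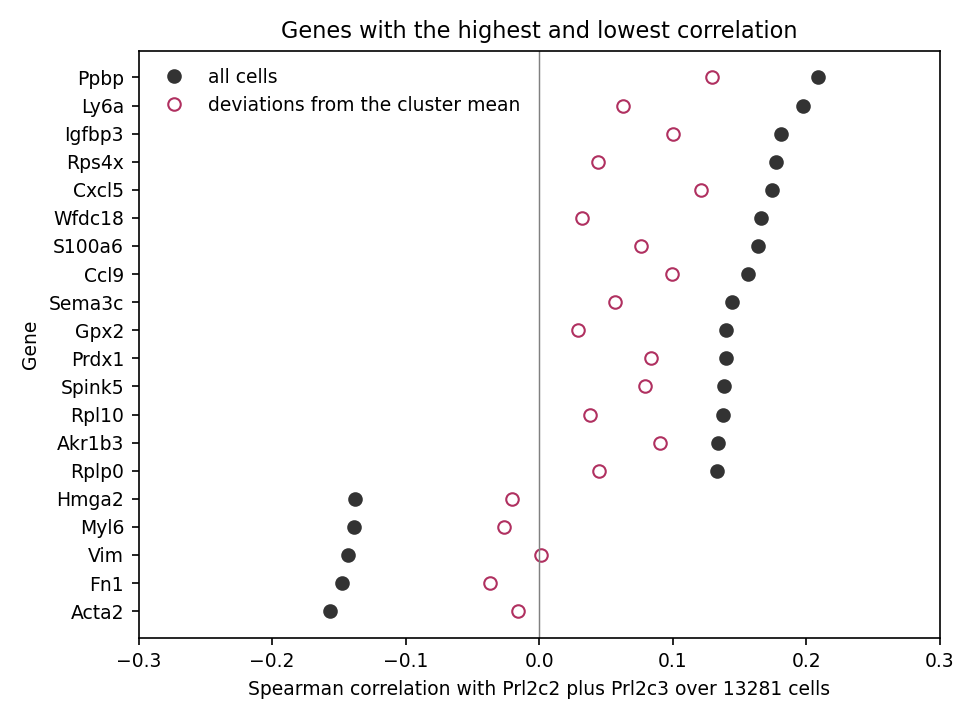
Spearman correlation with Prl2c2 plus Prl2c3 for the 15 highest and the 5 lowest of 2622 genes, over all thinned cells (filled) and as deviations from the cluster mean (open). Only Ppbp lies beyond 0.2, and all values move toward 0 within clusters.

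To see which genes were higher or lower in cells rich in proliferin, thinned cells were split by their summed UMIs of Prl2c2 and Prl2c3. There were 10599 cells with 0, 1836 with 1 to 2, 633 with 3 to 5 and 213 with 6 or more. The last set, called proliferin-high here, is a range and not a cell type: 71 of its cells had exactly 6 UMIs and 112 cells just below the limit had 5. Cluster 1 supplied 74.2% of the proliferin-high cells and 27.1% of the cells with 0, and the mesenchymal-like cluster 0.469% and 17.7%. A gene counted as higher or lower when its levels differed 2-fold or more, the higher level reached 10 CPM and the 95% intervals lay apart. Of 8855 genes measured in this way, 127 (1.43%) were higher and 202 (2.28%) lower in proliferin-high cells, with a median log2 ratio of -0.06. The balance depends on the thinning depth, with 146 higher and 89 lower at 1000 UMIs and 71 higher and 322 lower at 2500 UMIs. The limit of 6 proliferin UMIs was the same at each depth, so the cells in the compared sets changed too. Within cluster 1 alone, 82 of 8542 genes (0.96%) were higher and 37 (0.433%) lower, and 39 of the 127 and 14 of the 202 were called there too. Many calls rest on few cells: 84 of the 127 higher genes had a UMI in at least 10 proliferin-high cells.

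Prl2c5 had the largest ratio among the genes named here. Its level was 12.5 CPM in cells with 0 UMIs of the other 2, 89.0 CPM with 1 to 2, 172.7 CPM with 3 to 5 and 275 CPM (221 to 339) with 6 or more, each step above the last with no overlap of intervals. The ratio of the ends was 22 (16.9 to 28.4), with 24 of 213 proliferin-high cells carrying a Prl2c5 UMI, and it was 12.3 within cluster 1. The third proliferin thus rose with the other 2 over the whole range, although its share of the UMIs differed by cluster.

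Secreted inflammatory signals were the list with the most higher genes. Of 21 members measured, 6 were higher and 2 lower, beside 1.43% and 2.28% of all genes, with a median log2 ratio of 0.31, against -0.06 over all genes. Tslp, an epithelial cytokine, had 44.5 CPM in cells with no proliferin UMI and 210 CPM (162 to 266) in proliferin-high cells, a ratio of 4.72 from 21 cells. The neutrophil chemokine gene Cxcl3 went from 104 CPM to 357 CPM (294 to 429), 3.41-fold, from 61 cells. Cxcl5 and Ppbp, far more abundant, went from 1394 to 3459 CPM and from 2807 to 6316 CPM, and their levels were higher at each step of the range. Cxcl2 at 2.85-fold and Ccl5 at 2.72-fold completed the 6, from 18 and 11 cells. The lower members were the alarmin gene Il33, with 65.6 CPM against 6.26 CPM (0.758 to 22.6) from 2 cells, and the monocyte chemokine gene Ccl7, with 252 against 81.4 CPM (53.2 to 119). Direction depended on the cells for Ccl7, which within cluster 1 was 2.05-fold higher. In cluster 1 the same list had 6 higher and no lower members, namely Ccl5, Cxcl3, Tslp, Ccl2, Cxcl5 and Ccl7, with a median log2 ratio of 0.78. Over the 8542 genes measured in cluster 1, 0.96% were higher and 0.433% lower, with a median log2 ratio of 0.05. Ccl2, Ccl5, Cxcl2 and the cluster 1 values were singled out after they were seen.

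**Figure D5:**
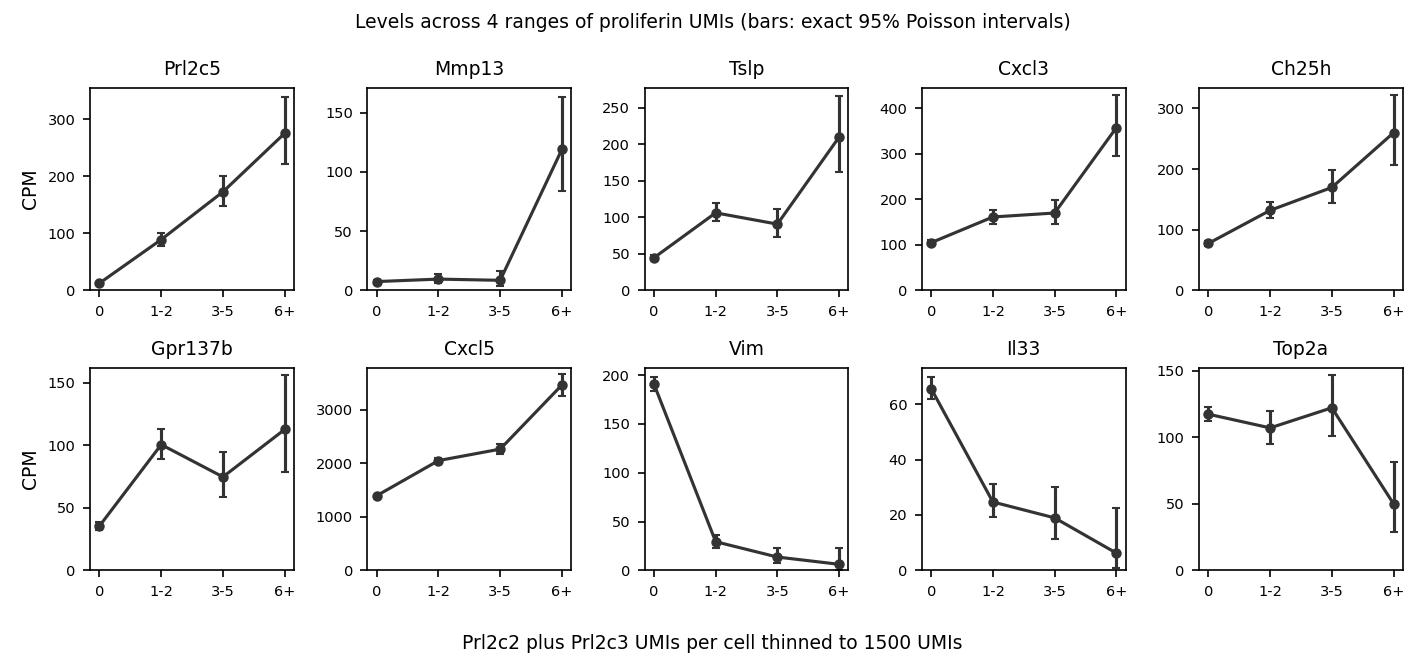
CPM of 10 genes in thinned cells with 0, 1 to 2, 3 to 5, or 6 or more summed UMIs of Prl2c2 and Prl2c3; bars are exact 95% Poisson intervals and each panel has its own axis from 0. Prl2c5, Ch25h and Cxcl5 are higher at each step, Mmp13 is at 7.36 to 9.44 CPM until the last range, Vim and Il33 fall from the first range on, and Top2a is lower in the last range only.

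Among 18 wound keratinocyte and protease genes, 3 were higher and none lower, where 1.43% of all genes were higher and 2.28% lower, shares that also stand beside the counts of the lists that follow. The collagenase gene Mmp13 had 7.36, 9.44 and 8.42 CPM in the first 3 ranges and 119 CPM (84.2 to 163) in proliferin-high cells, from 13 cells, and its ratio of 16.2 was 9.85 within cluster 1. Of the sets compared, only the proliferin-high cells reached 10 CPM for Mmp13, which could thus be called only as higher. The cornified envelope genes Sprr2d, of a family of similar copies, 4.30-fold from 7 cells, and Sprr1b, 2.03-fold from 35 cells, were not called within cluster 1, where their ratios were 2.18 and 1.14. The stress keratin genes Krt6a, Krt16 and Krt17 had ratios of 0.992, 1.00 and 1.11. The sterol list gave 1 higher gene of 14: Ch25h, which makes 25-hydroxycholesterol, went from 77.3 to 260 CPM (207 to 322), 3.36-fold from 55 cells and 2.72-fold in cluster 1. The EGF family list gave 1 of 7, the ligand gene Ereg, from 16.5 to 37.6 CPM (19.4 to 65.6) in 12 cells. Of 12 genes known as p53 targets, Fas was higher at 2.26-fold and Btg2 lower at 0.476-fold.

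The AP-1, growth factor response and cell cycle lists had lower members only, and the angiogenesis and endoplasmic reticulum folding lists had none called. Over all genes 1.43% were higher and 2.28% lower. Of 8 AP-1 genes, 1 was called, Fos, which was lower: 22.4 CPM against 3.13 CPM (0.0792 to 17.4) from 1 UMI. Of 14 growth factor response genes, 1 was called, the matricellular gene Ccn2, at 317 against 103 CPM (71.1 to 145). None of 12 angiogenesis genes and none of 15 endoplasmic reticulum folding genes was called in either direction. In the S phase list 2 of 15 were lower, Hells and Dut, and in the G2 and mitosis list 4 of 19 were lower, Top2a, Cdk1, Ccnb2 and Hmmr, with none higher. Top2a, a topoisomerase of dividing cells, had 117 CPM with 0 proliferin UMIs, 107 and 122 CPM in the middle ranges and 50.1 CPM (28.6 to 81.3) in the last. Without the cycling-like and mesenchymal-like clusters, neither cell cycle list had a called gene, with 11 and 6 members measured. The ratio then stood at 0.426 for Hells, from 0.312, which did not meet the rest of the calling rule, and at 0.512 for Cdk1, from 0.436, while it was 0.862 for Dut, from 0.462, and 1.25 for Top2a, from 0.426. The values of Hells, Ccnb2, Hmmr and Fos in proliferin-high cells rest on 4, 3, 2 and 1 UMIs.

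Some markers of other cell types moved along the range. None of 7 basal epithelial markers and none of 3 differentiated squamous markers was called. Of 8 measured mesenchymal markers 6 were lower in proliferin-high cells, and the list's summed level went from 1505 CPM to 459, 335 and 419 CPM. The mesenchymal-like cluster supplied 17.7% of the cells with 0 and 0.469% of the proliferin-high cells. Of the sets compared, only the cells with 0 reached 10 CPM for Vim, Grem1, Col1a1 and Col5a1, which could thus be called only as lower. Without the mesenchymal-like and cycling-like clusters, 2 markers of this list were measured and none was called. Vim had 191 CPM against 6.26 CPM (0.758 to 22.6) from 2 UMIs. Grem1, Col1a1 and Col5a1 had 0 UMIs in proliferin-high cells and were 7.06-fold, 5.88-fold and 2.89-fold lower there when 0 was set to a floor of 3 UMIs. Of 7 simple epithelial markers Krt7 and Krt19 were lower, at 0.403-fold and 0.486-fold. Their part in the other differences was not tested beyond the values without the mesenchymal-like and cycling-like clusters, where 115 of 8985 genes (1.28%) were higher and 107 (1.19%) lower, 79 of the 127 and 74 of the 202 among them. Trophoblast markers were at or near 0 apart from Tfap2c. Of the 12, Hand1, Gcm1, Tpbpb, Ctsq, Syna and Synb had 0 UMIs, Tpbpa had 1, Cdx2 had 2, Elf5 had 4, Ascl2 had 18 and Plac1 had 28. Tfap2c, which epithelia also express, had 260 UMIs. The summed level of the list lay between 1.48 and 12.4 CPM in the 10 clusters.

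The receptor genes were not called between the ranges of proliferin. Igf2r had 56.6 CPM (54.5 to 58.9) over all cells, and its level lay between 40.4 and 75.6 CPM in 9 clusters. Only cluster 9 stood apart, at 282 CPM (234 to 337), and Igf2r is itself among the genes that lead that cluster. In proliferin-high cells Igf2r was 1.14 times its level in cells with no proliferin UMI (0.711 to 1.74). M6pr, the smaller mannose 6-phosphate receptor, had 83.4 CPM and a ratio of 0.919 (0.598 to 1.35). Prlr, the receptor of prolactin, had 0.506 CPM, with 14 of its 23 UMIs in the mesenchymal-like cluster. None of the 5 measured genes of the binding and sorting list was called.

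The neighbourhood of the genes was read for other members that moved. Of the genes around the locus, Gpr137b, at chr13:13357620-13394014 next to Prl2c5, was higher in proliferin-high cells. Its level was 35.5 CPM with 0 proliferin UMIs, 101 and 74.8 CPM in the middle ranges and 113 CPM (78.9 to 156) in the last, a 3.17-fold difference (2.20 to 4.44) from 33 cells. Within cluster 1 its ratio was 1.76 and was not called. Over clusters it was highest in cluster 6, at 135 CPM, and lowest in the mesenchymal-like cluster 4, at 15.9 CPM. Heatr1, Lgals8 and Lyst, also measured there, were not called at ratios of 2.28, 0.434 and 0.496. These 4 genes were looked at because of their position, and the comparison was added after the data were seen.

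Since the proliferins were found in the same cells while their proportions differed, the promoters of Prl2c3 and Prl2c5 are shown, from RefSeq on GRCm38.p6, in which 2 of the 3 genes were matched. They are the 250 bases before the start site, 5′ to 3′ on the strand of the gene, at chr13:12800080-12800329 (minus) for Prl2c3 and chr13:13182466-13182715 (plus) for Prl2c5. Capitals mark matches to TGANTCA and to TATATAAG. The first is looser than the AP-1 consensus, since N takes any base where the consensus has C or G. The second is a TATA-type motif chosen after the sequences were seen.
Prl2c3: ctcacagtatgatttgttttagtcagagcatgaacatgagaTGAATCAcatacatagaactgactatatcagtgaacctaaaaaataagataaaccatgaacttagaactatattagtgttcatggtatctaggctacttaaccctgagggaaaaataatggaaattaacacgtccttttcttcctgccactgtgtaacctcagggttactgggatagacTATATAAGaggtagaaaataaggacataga
Prl2c5: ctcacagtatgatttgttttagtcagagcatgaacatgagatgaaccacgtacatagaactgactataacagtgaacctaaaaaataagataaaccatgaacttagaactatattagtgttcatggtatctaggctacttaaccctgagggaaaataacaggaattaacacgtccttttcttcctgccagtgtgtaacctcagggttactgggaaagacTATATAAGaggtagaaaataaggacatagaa
The promoters were 96.0% identical, with 241 of 251 aligned positions the same. TATATAAG began 30 bases before the start site in Prl2c3 and 31 in Prl2c5, and was found on either strand in 307 of 32851 promoters (0.934%). TGANTCA occurred 209 bases before the start of Prl2c3, as TGAATCA, which is not the AP-1 consensus at its central base. With any central base it was found in 2217 of 32851 promoters (6.75%). The Prl2c5 window holds no match to TGANTCA. A match is a description of the sequence, not of binding.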

How the data were processed

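The deposited matrix holds UMI counts per gene and cell barcode that, per the file headers, came from cellranger 8.0.1 and were not normalized. The submitters' processing notes name Cell Ranger, Scanpy 1.8.2 and build mm10, while the annotation is not stated in any source used here. The labels list 3 libraries (gene expression, barcodes, scars) and none is tied to the matrix, so it was taken as 1 pooled sample, with no test and no p-value. GFP and Scar, added sequences, made up 1.45% and 1.38% of UMIs.

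Computed here in Python 3.11.15: the cell filter, thinning without replacement, CPM (counts summed over cells per 1000000 UMIs) with exact Poisson intervals, shares with Clopper-Pearson intervals, and Spearman correlations over thinned cells. Clusters came from scanpy 1.11.5 and igraph 0.11.9 with 2000 variable genes other than Prl genes, 30 components, 15 neighbours and Leiden resolution 0.6. A cluster name needed 3 markers raised 1.5-fold and 2 markers among its top 10 genes. Scrublet called 1 of 14925 cells, too few to have worked. Thinning left out 1644 shallower cells. A ratio with 0 to 2 UMIs in a set was ranked at the value of 3 UMIs. The calling and correlation steps were tested on simulated counts.

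The members and the gene lists were chosen with earlier results of these data known. Genes were named by a rule: the prolactin family, the 15 highest and 5 lowest correlations, the 5 highest within clusters, up to 4 called genes per list with the largest ratio, 3 leading genes per cluster, Igf2r, M6pr and Prlr. Names outside it (Gpr137b and its neighbours, trophoblast markers, Krt5 and the 3 keratins of the wound list among them) were added after their values were seen. Alternatives covered the cell filter, doublet scores, thinning depth and seed, totals, the kind of correlation, the clustering and the calling rule.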

Additional observations from a re-analysis of the deposited data

How the results depend on the processing

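Of 64 alternative values, 29 stayed within counting error (for counts of genes, within 1.5 times) and 35 did not. No paired analysis was possible because there is 1 pooled sample. With at least 1000 genes and 2000 UMIs per cell, the levels were 123 CPM for Prl2c2 and 247 CPM for Prl2c3, the highest cluster was 29.6 times the lowest, and 11.5%, 17.3% and 6.97% of thinned cells had Prl2c2, Prl2c3 and both. With the cells in the top 10% of doublet scores left out, the levels were 119 and 237 CPM, the cluster ratio 53.1 and the genes correlated at 0.2 numbered 2. Without GFP and Scar in the totals the levels were 118 and 235 CPM. At 1000 UMIs the shares were 7.68% for Prl2c2, 12.2% for Prl2c3 and 3.91% for both, the correlation of the pair 0.351 and the correlated genes 0. At 2500 UMIs they were 17.1%, 24.2%, 11.9%, 0.518 and 9. The correlation was 0.414 with at most 10% mitochondrial UMIs, 0.405 with another seed, 0.588 as Pearson's r on unthinned log values (7 correlated genes) and 0.380 as deviations from the cluster mean (0 genes). The cluster ratio was 18.1 at resolution 0.4, 34.6 at 1.0 and 33.3 with the Prl genes among the clustering features. Genes called between proliferin-high and proliferin-zero cells, 329 in all, numbered 542 at a ratio of 1.5. By 2 alternatives chosen after seeing the data they numbered 119 in cluster 1 and 133 with a UMI in at least 10 proliferin-high cells. In the last 300 transcript bases, 100% of windows of Prl2c2 were shared with Prl2c3. More UMIs per cell gave larger shares and correlations by construction of the thinning, and the cause of the other changes was not tested. With 213 proliferin-high cells, some calls rest on 4 UMIs or fewer.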
